A study of Mus musculus with 23 samples.

Results

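Sox10, Olig1, Olig2, Nkx2-2, Sox8, Pdgfra, Cspg4 and Gpr17 are 8 genes that specify oligodendrocytes, the myelin-forming cells of brain and spinal cord, or that mark their precursors. They were taken by name from the 20016 genes of the cortex table and the 19890 of the spinal cord table, and all 8 were present in both. All 8 also passed the filter on low values, which left 13865 genes tested in cortex and 13839 in spinal cord. They were picked with earlier results from these libraries known, among them higher values of lineage and myelin genes in F08 cortex.

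The study sequenced RNA from the cortex and the lumbar segment of the spinal cord, in C57BL/6 animals 6 months old that do or do not carry human C9orf72, the gene whose hexanucleotide repeat expansion is a common genetic cause of amyotrophic lateral sclerosis and frontotemporal dementia. F112 mice express human C9orf72 with the expansion from a bacterial artificial chromosome (3 cortex and 4 spinal cord libraries). F08 mice express the unexpanded human gene (4 and 4 libraries), and nontransgenic NTg mice carry neither (4 and 4 libraries). Each transgene is represented by a single line, so the repeat and other features of a line, such as its insertion site, cannot be told apart. The 23 libraries came from 12 mice, and the labels do not give sex. Xist, used below as a covariate, was either 23.6 to 36.5 RPKM or at most 0.495 RPKM in a library. Each group held 2 libraries of each kind, except F112 cortex, with 2 high and 1 low (F112 6324).

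Oligodendrocyte precursors arise from progenitors that express Olig2 and Nkx2-2, spread through brain and cord, and stay in adult tissue as dividing cells. They carry the receptor Pdgfra and the proteoglycan Cspg4 (NG2), lose both on commitment, pass through a stage marked by Gpr17, and then make myelin. Sox10, Sox8, Olig1 and Olig2 stay on in mature oligodendrocytes, so their transcripts in whole tissue can come from both stages. In bulk tissue, fewer cells of a type and less RNA per cell cannot be told apart.

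Cortex libraries had 9398450 to 14715900 alignments and cord libraries 28479400 to 38811100. Within cord they ran from 34097800 to 38811100 in F112, 31459800 to 37367600 in F08 and 28479400 to 34100800 in NTg. The F112 and NTg ranges barely overlapped, so depth and genotype cannot be cleanly told apart in that contrast. For the 8 genes, the median standard error (SE) of the log2 difference of F112 from NTg was 0.15 with the cortex libraries and 0.067 with those of cord. Summed markers of neurons (10 genes) ran from 1347 to 1678 RPKM in cortex and from 2691 to 2867 in cord, and no neuron, astrocyte or mature myelin marker was at 0 throughout a group. In cortex 3 libraries (NTg 6322, NTg 6326 and F08 6320) held 375 to 725 RPKM of Ttr, a choroid plexus transcript, against 1.20 to 16.6 in the other 8. Summed over 10 choroid plexus markers the range was 4.11 to 17.2 RPKM in F112, 4.02 to 769 in F08 and 16.0 to 761 in NTg cortex, and none of the 10 was at 0 throughout a group. In spinal cord, F112 6325 held 459 RPKM of Rn45s, a ribosomal RNA precursor, against 31.5 to 82.6 in the other 11 libraries. Rn45s was higher in cortex and uneven between genotypes. It stood at 2203, 2455 and 748 RPKM in F112 6316, 6317 and 6324, and ran from 587 to 2640 in F08 and from 680 to 1324 in NTg. Its part in the values of the 8 genes was not tested.

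RPKM values are reads scaled to transcript length and library size, so levels of different genes can be ordered within a tissue. From high to low by mean RPKM, cortex ran Olig1, Sox8, Sox10, Gpr17, Olig2, Pdgfra, Cspg4 and Nkx2-2. Of neighbours in that order, Gpr17 exceeded Olig2 in 9 of 11 libraries and Olig2 exceeded Pdgfra in 7 of 11, and both of these pairs overlapped in range. Sox8 and Sox10, and Sox10 and Gpr17, kept their order in all 11 libraries although their ranges overlapped. In spinal cord the order was Olig1, Sox10, Sox8, Olig2, Gpr17, Pdgfra, Nkx2-2 and Cspg4, and Gpr17 exceeded Pdgfra in 6 of 12 libraries, so these neighbours were not separated.

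Sox10, Olig2 and Nkx2-2 ranked higher in spinal cord than in cortex. In NTg mice Sox10 averaged 9.08 RPKM in cortex and 36.6 in cord, Nkx2-2 1.31 and 4.76, Olig1 28.1 and 75.9, and Olig2 6.48 and 15.0. Sox8 lay closer at 16.2 RPKM in NTg cortex and 20.9 in NTg cord. The precursor markers did not share the higher cord level: Pdgfra averaged 6.63 RPKM in NTg cortex and 6.42 in NTg cord, Cspg4 3.19 and 2.35, and Gpr17 6.22 and 5.33. The tables were scaled apart and the labels name Ion Torrent chemistry for brain and Illumina for cord, so levels were not tested across tissues.

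**Figure D1:**
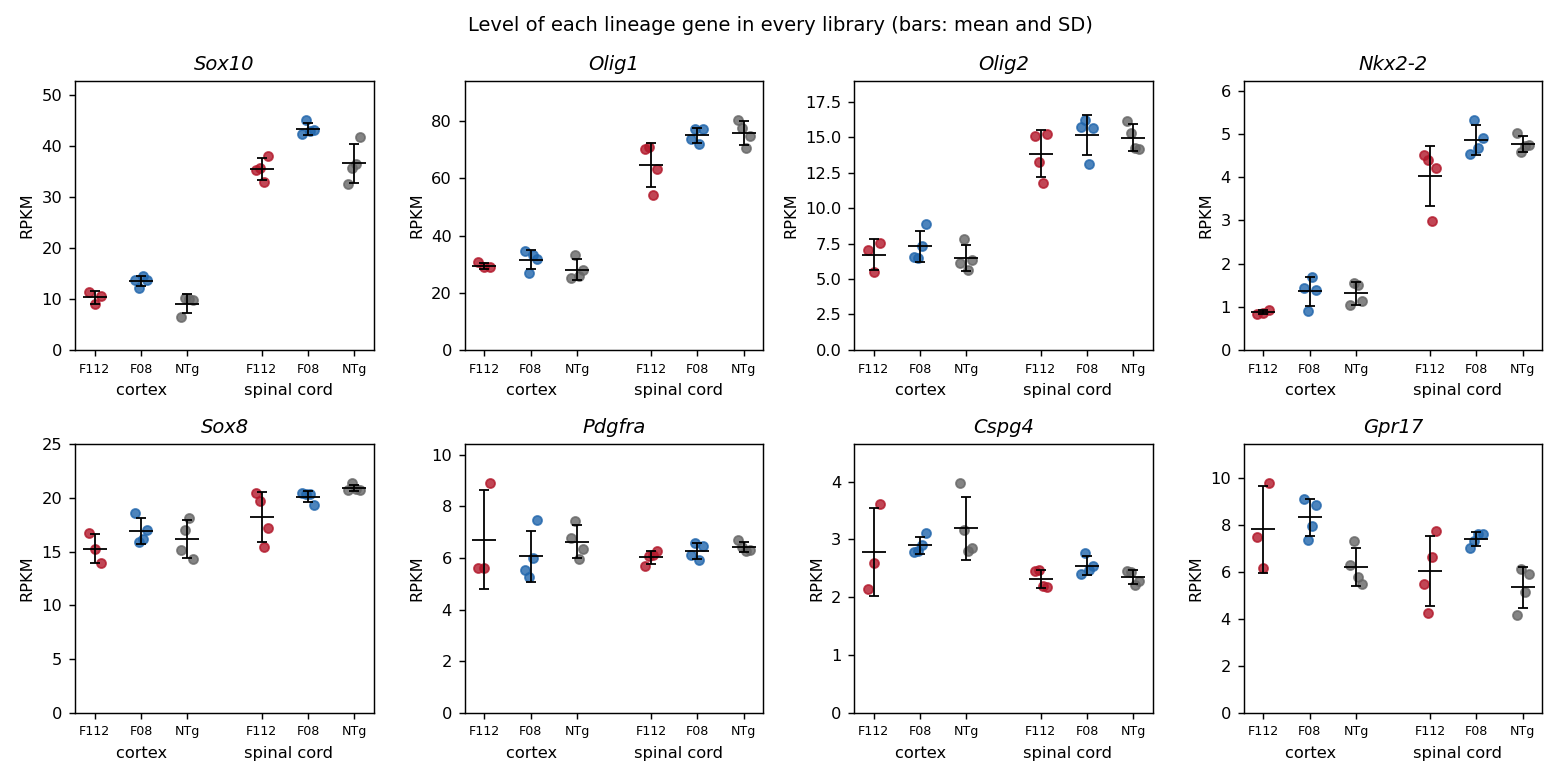
RPKM (vertical axis, from 0) of each of the 8 genes in every library, for F112, F08 and NTg in cortex and then in spinal cord; points are libraries, and bars give the mean and SD of 3 or 4 libraries. Sox10 and Gpr17 in F08 sit above every NTg library in both tissues, while the cortex panels for Pdgfra and Cspg4 overlap throughout.

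Among the transcription factors, Sox10 is an SRY-box factor that binds the enhancers of myelin genes and is needed for terminal differentiation. In cortex, taking libraries in order of mouse number throughout, Sox10 stood at 11.3, 8.96 and 10.7 RPKM in F112, at 13.6, 12.1, 14.5 and 13.8 in F08, and at 6.40, 10.3, 9.98 and 9.71 in NTg. Every F08 value lay above every value of the other genotypes, whereas F112 and NTg overlapped. In spinal cord Sox10 was 35.3, 35.7, 32.9 and 38.0 RPKM in F112, 42.4, 45.1, 42.9 and 43.1 in F08, and 32.6, 35.7, 36.4 and 41.8 in NTg. Again the 4 F08 values stood above all others, narrowly so for NTg 6327.

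Olig1 and Olig2 are basic helix-loop-helix factors that lie next to each other on chromosome 16, with 41.1 kb between them (GRCm38; Olig2 at 91225457 to 91228677 and Olig1 at 91269772 to 91271933, both on the plus strand). Olig2 sets the lineage and Olig1 acts mainly in maturation and repair of myelin. Cortical Olig1 was 30.8, 28.9 and 28.9 RPKM in F112, 34.7, 26.8, 33.4 and 31.7 in F08, and 25.2, 33.4, 25.7 and 28.0 in NTg. Cortical Olig2 was 7.07, 5.51 and 7.57 RPKM in F112, 6.58, 6.47, 7.34 and 8.85 in F08, and 6.16, 7.79, 5.63 and 6.34 in NTg. All genotypes overlapped for both genes in cortex.

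In spinal cord Olig1 was 70.3, 71.2, 54.4 and 63.2 RPKM in F112, 73.8, 77.2, 72.0 and 77.2 in F08, and 80.4, 77.7, 70.7 and 74.7 in NTg. F112 lay below all F08 libraries and overlapped NTg by 1 library, F112 6317. Olig2 in cord was 15.1, 13.2, 11.8 and 15.2 RPKM in F112, 15.7, 16.2, 13.1 and 15.6 in F08, and 16.1, 15.3, 14.2 and 14.2 in NTg, with all genotypes overlapping.

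Nkx2-2 is a homeodomain repressor that times the onset of myelin gene expression. It was the lowest member in cortex, at 0.842, 0.860 and 0.934 RPKM in F112, 1.44, 0.893, 1.70 and 1.38 in F08, and 1.04, 1.55, 1.51 and 1.13 in NTg. The F112 values lay below all NTg values and overlapped F08 through F08 6319. These levels correspond to roughly 18 to 53 reads per library, computed from RPKM, alignments and annotated length, and at 18 reads the counting error is 23.6%. In cord Nkx2-2 was 4.51, 4.39, 2.99 and 4.20 RPKM in F112, 4.54, 5.32, 4.67 and 4.90 in F08, and 5.01, 4.57, 4.72 and 4.75 in NTg. In cord F112 lay below both other genotypes without overlap, with F112 6324 far below the rest.

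Sox8 is the close relative of Sox10 that partly stands in for it in precursors. Cortical Sox8 was 16.7, 15.2 and 14.0 RPKM in F112, 18.6, 15.9, 16.2 and 17.1 in F08, and 15.2, 17.0, 18.2 and 14.3 in NTg, so that the genotypes overlapped. In cord it was 20.5, 19.7, 15.5 and 17.2 RPKM in F112, 20.5, 20.4, 20.4 and 19.3 in F08, and 20.8, 21.4, 20.8 and 20.8 in NTg. Both transgenic genotypes lay below all NTg libraries, each by a small margin. The highest library reached 20.5 RPKM in F112 and in F08, and the lowest NTg library stood at 20.8. The antisense gene 2810468N07Rik overlaps 10.6% of the annotated exon bases of Sox8 and Nkx2-2os 9.7% of those of Nkx2-2, and the sources used here do not say whether counting used strand, so reads from such pairs cannot be told apart.

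Nkx2-2, Sox8 and Pdgfra lay below every NTg library in F112 cord. The 250 bases upstream of the RefSeq start sites of Nkx2-2 and Sox8 are shown (GRCm38.p6, minus strand for both, chr2:147186403-147186652 and chr17:25570687-25570936). The Nkx2-2 window lies within the gene as annotated in GENCODE M21 (147177546 to 147194243), and the start further upstream is not shown. Capitals mark GC boxes, GGGCGG on either strand, the common binding sequence of Sp-type activators.
Nkx2-2: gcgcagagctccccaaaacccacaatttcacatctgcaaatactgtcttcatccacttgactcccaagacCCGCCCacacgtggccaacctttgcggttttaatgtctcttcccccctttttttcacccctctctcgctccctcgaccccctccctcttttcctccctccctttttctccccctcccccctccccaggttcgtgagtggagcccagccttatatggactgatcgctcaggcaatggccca
Sox8: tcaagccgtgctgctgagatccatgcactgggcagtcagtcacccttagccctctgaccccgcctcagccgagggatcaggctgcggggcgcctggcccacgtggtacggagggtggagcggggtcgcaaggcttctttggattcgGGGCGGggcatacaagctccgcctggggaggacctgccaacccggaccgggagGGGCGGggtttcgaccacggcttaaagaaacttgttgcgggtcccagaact
Nkx2-2 has 1 GC box and Sox8 has 2, and 32.7% of all 32851 upstream windows of this length hold at least 1. Neither window holds the Sox core sequences ACAATG or ACAAAG on either strand, which occur in 10.7% and 16.5% of all windows. E-boxes, CANNTG, the sequence class bound by Olig and other helix-loop-helix factors, occur 3 times in the Nkx2-2 window and 1 time in that of Sox8, and in 66.2% of all windows. These matches describe the sequences only. No promoter of Pdgfra or of another member is shown.

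The precursor surface proteins overlapped between all genotypes in cortex. Pdgfra, the receptor for platelet-derived growth factor AA that keeps precursors dividing, stood at 5.59, 5.61 and 8.91 RPKM in F112 cortex, 5.52, 5.26, 5.98 and 7.49 in F08, and 6.76, 7.44, 5.96 and 6.34 in NTg. Cspg4 was 2.14, 2.58 and 3.62 RPKM in F112 cortex, 2.77, 2.80, 2.90 and 3.11 in F08, and 3.98, 3.16, 2.79 and 2.85 in NTg. For both genes the F112 libraries spanned most of the range of the 11 libraries, with F112 6324 on top of its group.

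Spinal cord libraries spread less for both genes. Pdgfra was 5.68, 6.06, 6.13 and 6.26 RPKM in F112, 6.11, 6.58, 5.94 and 6.48 in F08, and 6.68, 6.44, 6.28 and 6.30 in NTg; F112 lay just below NTg without overlap. Cspg4 was 2.45, 2.46, 2.19 and 2.18 RPKM in F112, 2.40, 2.77, 2.47 and 2.54 in F08, and 2.46, 2.44, 2.20 and 2.29 in NTg, and the genotypes overlapped. Pdgfra and Cspg4 also mark fibroblasts and pericytes of vessels and meninges. The summed level of 8 pericyte markers in cord was 49.7 to 55.7 RPKM in F112, 53.1 to 56.6 in F08 and 54.5 to 55.8 in NTg, that of 9 fibroblast and meninges markers 16.0 to 16.7, 16.3 to 18.2 and 13.9 to 17.1, and none of these markers was at 0 throughout a group. Their part in the Pdgfra and Cspg4 values was not tested.

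Gpr17 is a G protein-coupled receptor present for a short time in committed precursors, and it restrains their maturation. In cortex it was 7.48, 6.16 and 9.79 RPKM in F112, 9.09, 7.35, 7.96 and 8.85 in F08, and 6.31, 7.33, 5.77 and 5.49 in NTg. All F08 values lay above NTg, the lowest of them narrowly, and F112 overlapped both. In cord Gpr17 was 5.49, 4.24, 6.64 and 7.73 RPKM in F112, 7.01, 7.32, 7.62 and 7.63 in F08, and 4.16, 6.11, 5.16 and 5.91 in NTg. The F08 libraries were again above all NTg libraries and lay close together, whereas F112 spanned nearly the whole range.

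**Figure D2:**
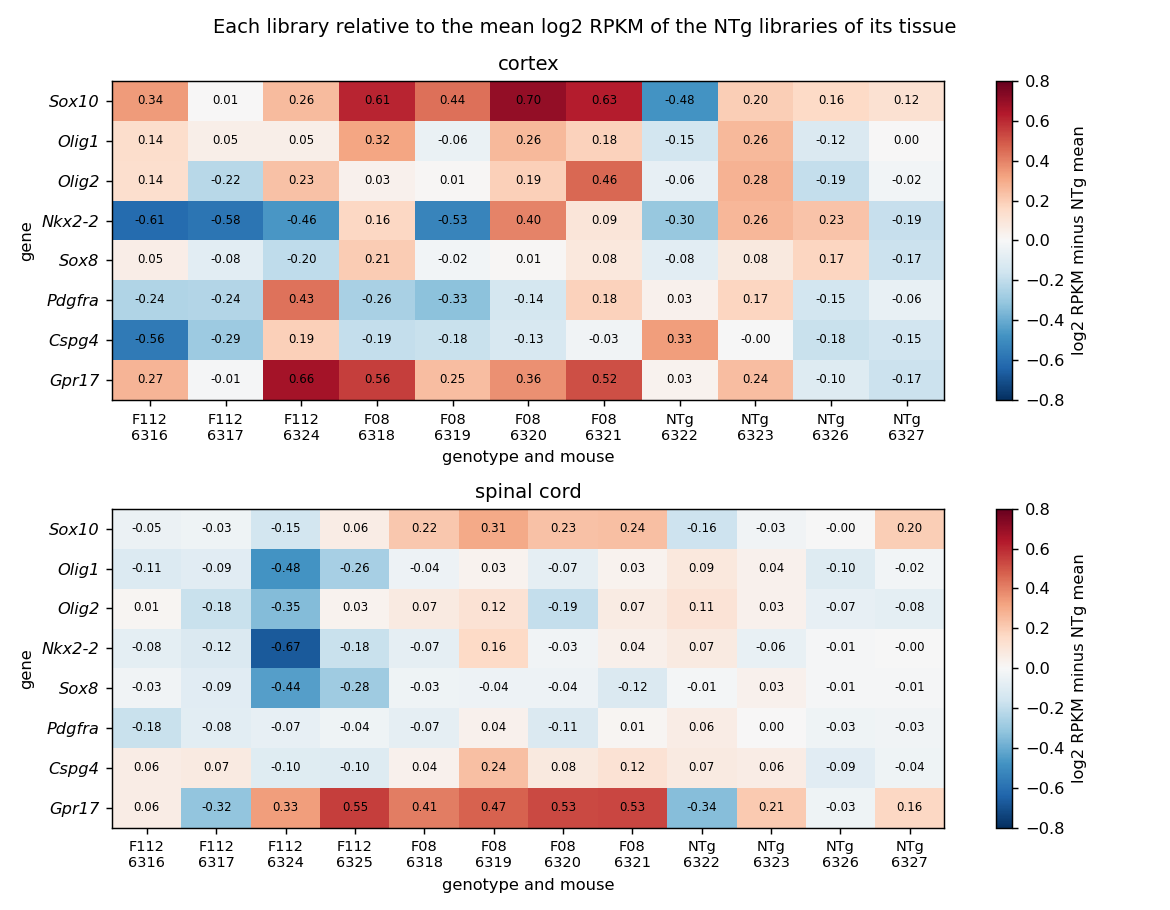
Log2 RPKM of each gene in each library minus the mean log2 RPKM of the NTg libraries of the same tissue (colour and printed value); columns are libraries in the order F112, F08, NTg with the mouse number. F08 columns are red for Sox10 and Gpr17 in both tissues, and spinal cord library F112 6324 is blue for Olig1, Olig2, Nkx2-2 and Sox8.

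The first comparison asked how mice with the expanded transgene differed from nontransgenic mice. In cortex no member passed limma's test with Benjamini-Hochberg adjustment over all genes (0 of 8, against 0.00721% of all genes tested), and 4 members lay above 0, as 43.6% of all genes did, and 4 below. The largest differences on the log2(RPKM + 0.5) scale were -0.38 for Nkx2-2 (SE 0.18, 95% interval -0.78 to 0.02) and 0.29 for Gpr17 (SE 0.15, interval -0.04 to 0.61), both at an adjusted p of 1.00. Without F112 6324 Gpr17 stood at 0.12, and without F112 6317 at 0.44. Sox10 differed by 0.19 (interval -0.14 to 0.52), by 0.04 without NTg 6322 and by 0.04 without the 3 Ttr-rich libraries. Pdgfra differed by -0.01 (interval -0.37 to 0.35), a sign that other scalings turned. Nkx2-2 was the 1 member whose groups did not overlap, against 1.86% of all genes lying lower in F112 in that way. The median over the 8 genes was 0.02, against -0.02 over all genes.

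In spinal cord 7 of 8 members lay below 0 in F112 against NTg, where 56.3% of all genes did, with a median of -0.10 against -0.01 over all genes. With quantile normalization Cspg4 moved to the other side of 0, which left 6 of 8, and with a correction for GC content, chosen after seeing the data, 5 of 8 lay below 0. With alignments as a covariate 6 of 8 lay below 0, and the median was -0.14. In the same contrast 8 of 10 microglia, 8 of 10 astrocyte, 6 of 7 pericyte and 6 of 10 neuron markers lay below 0 (medians -0.06, -0.05, -0.11 and -0.01). Of fibroblast and meninges markers 4 of 7 lay above 0 (median 0.02). Of Schwann cell markers other than Sox10, 3 of 5 did (median 0.01). The part of these cell types in the values of the 8 genes was not tested. None of the 8 passed (0.00723% of all genes did). Olig1 differed by -0.23 (SE 0.069, interval -0.38 to -0.09, limma adjusted p = 0.528), Nkx2-2 by -0.23 (SE 0.092, interval -0.43 to -0.04, adjusted p = 0.635) and Sox8 by -0.20 (SE 0.065, interval -0.34 to -0.06, adjusted p = 0.557). Their unadjusted p-values were under 0.05, which held for 4.91% of all genes on the lower side. Nkx2-2, Sox8 and Pdgfra did not overlap between the groups, as 2.1% of all genes on the lower side. Gpr17 alone lay above 0, at 0.15 (interval -0.15 to 0.44), with 0.02 without F112 6325 and 0.29 without F112 6317. Over the alternative runs other than leave-outs, Gpr17 ran from 0.0017 to 0.17. Sox10 stood at -0.04 (interval -0.17 to 0.09).

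A single library carried much of that pattern. F112 6324 was the lowest of 12 cord libraries for Olig1, Olig2, Nkx2-2 and Sox8, and it was among the 3 lowest for 6 of the 8 genes. F112 6325 was also low for Olig1 (63.2 RPKM) and Sox8 (17.2), though not for Olig2 (15.2). Without F112 6324 the difference was -0.15 for Olig1, -0.11 for Nkx2-2 and -0.13 for Sox8, 6 of 8 members lay below 0, and the median was -0.07. Olig1 and Sox10 are GC-rich (61.1% and 61.8% of transcript bases). With the GC correction Olig1 differed by -0.15 (SE 0.034, adjusted p = 0.323), Nkx2-2 by -0.20 and Sox8 by -0.18, and Sox10 stood at 0.05.

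The second comparison asked what the unexpanded transgene line showed. In F08 cortex against NTg, where earlier results led to the choice of these genes, the values are a description. Of the 8 genes 6 lay above 0, as 49.5% of all genes did, and no gene passed the test there (0%). Sox10 differed by 0.57 (SE 0.14, interval 0.26 to 0.87) and Gpr17 by 0.39 (SE 0.14, interval 0.09 to 0.69), and for both the groups did not overlap, as for 0.822% of all genes on the higher side. The other 6 ranged from -0.13 for Pdgfra and -0.11 for Cspg4 to 0.17 for Olig1. The intervals of these 6 included 0. Without NTg 6322, the library with the lowest Sox10 and Olig1, Sox10 differed by 0.42. Without the 3 Ttr-rich libraries it differed by 0.38 and Gpr17 by 0.38, and 5 of the 8 genes lay above 0.

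Spinal cord gave the same contrast in other libraries of the same mice, so the tissues are not independent. Sox10 differed by 0.25 between F08 and NTg (SE 0.061, interval 0.12 to 0.37, limma adjusted p = 0.977) and Gpr17 by 0.45 (SE 0.14, interval 0.16 to 0.74, adjusted p = 1.00). Neither passed the test (0 of 8 members, against 0.00723% of all genes). Both lay higher in 4 of 4 F08 libraries than in any NTg library, as 2.57% of all genes did, and both had an unadjusted p under 0.05, as 2.3% of all genes did on the higher side. Sox8 was lower without overlap, as 1.52% of all genes, with a difference of -0.06 (interval -0.20 to 0.08). Olig1, Olig2, Nkx2-2 and Pdgfra lay between -0.03 and 0.02 and Cspg4 at 0.10 (interval -0.03 to 0.22). The median of the 8 was 0.02, against 0.01 over all genes.

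**Figure D3:**
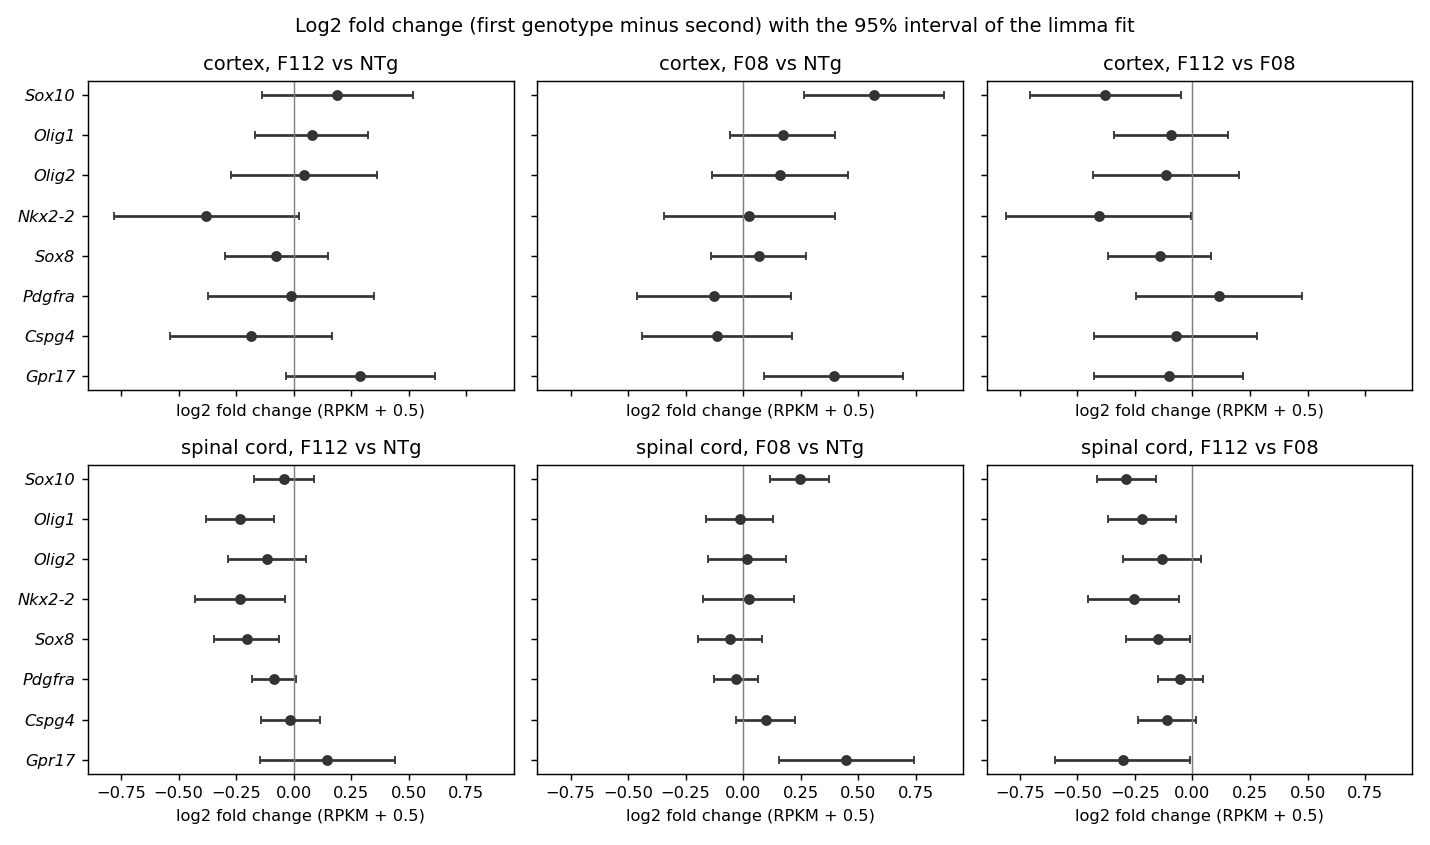
Log2 fold change (horizontal axis, log2 of RPKM + 0.5, first genotype minus second) of each gene with its 95% interval from the limma fit, in cortex (upper panels) and spinal cord (lower panels). In spinal cord all 8 points of F112 against F08 lie left of 0, and Sox10 and Gpr17 lie right of 0 for F08 against NTg in both tissues.

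The third comparison set the expanded line directly against the unexpanded one. The F112 libraries are the same as in the first comparison and the F08 libraries the same as in the second. All 8 members lay below 0 in F112 against F08 cord, where 58.8% of all genes did, with a median of -0.18 against -0.02 over all genes. Of markers of other cell types, 9 of 10 for microglia (median -0.07) and 6 of 7 for pericytes (median -0.11) lay below 0. So did 8 of 10 for astrocytes (median -0.03), 5 of 7 for fibroblasts and meninges (median -0.08) and 5 of 10 for neurons (median -0.03). Schwann cell markers other than Sox10 went the other way, with 5 of 5 above 0 (median 0.04). The part of these cell types in the lineage values was not tested. Sox10 differed by -0.29 (SE 0.061, interval -0.42 to -0.16, limma adjusted p = 0.213), Gpr17 by -0.30 (SE 0.14, adjusted p = 0.467), Nkx2-2 by -0.26 (adjusted p = 0.412), Olig1 by -0.22 (adjusted p = 0.406) and Sox8 by -0.15 (adjusted p = 0.459). These 5 had an unadjusted p under 0.05, as 8.01% of all genes on the lower side, and none passed after adjustment (0.0217% of all genes did). Sox10, Olig1 and Nkx2-2 did not overlap, as 4.18% of all genes on that side.

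The 2 precursor surface proteins showed the smallest differences there, -0.05 for Pdgfra (interval -0.15 to 0.04) and -0.11 for Cspg4 (interval -0.24 to 0.01). Without F112 6324 all 8 still lay below 0, with a median of -0.11, Olig1 at -0.14, Nkx2-2 at -0.14 and Sox8 at -0.08. Without F112 6325, the library rich in Rn45s, the median was -0.20 and Sox10 stood at -0.32 (adjusted p = 0.0864). Without F112 6317, Gpr17 stood at -0.16. With the GC correction all 8 lay below 0, the median was -0.12, Sox10 differed by -0.19 and Olig1 by -0.12.

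In cortex the same contrast is a description, since it uses the F08 cortex libraries whose values led to the choice of these genes. Of the 8 members 7 lay below 0 (56.3% of all genes), with a median of -0.11 against -0.02 over all genes. Nkx2-2 differed by -0.41 (SE 0.18, interval -0.81 to -0.01) and Sox10 by -0.38 (SE 0.15, interval -0.71 to -0.05). Sox10 was the 1 member without overlap, as 2.05% of all genes on the lower side. Whether a genotype difference was unlike in the 2 tissues was tested directly over 13078 genes. The contrasts that include F08 cortex reuse values that led to the choice of these genes. None of the 8 members passed in any of the 3 contrasts, against 0.00765%, 0.00765% and 0% of all genes for F112 against NTg, F08 against NTg and F112 against F08.

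Ratios of members within a library do not depend on how the library was scaled, and they are given as a description. How many of all gene pairs separate the genotypes in this way was not computed. The cortex ratios reuse the F08 values that led to the choice of these genes. Gpr17 over Pdgfra, a committed over a precursor marker, was 1.10 to 1.34 in F112 cortex, 1.18 to 1.65 in F08 and 0.867 to 0.985 in NTg. Both transgenic genotypes lay above NTg there. In cord the same ratio was 0.699 to 1.23 in F112, 1.11 to 1.28 in F08 and 0.623 to 0.949 in NTg, so that F08 lay above NTg and F112 overlapped both.

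Sox10 over its relative Sox8 was 0.589 to 0.762 in F112 cortex, 0.735 to 0.895 in F08 and 0.421 to 0.679 in NTg. In cord it was 1.72 to 2.21 in F112, 2.07 to 2.23 in F08 and 1.57 to 2.01 in NTg. F08 lay above NTg in both tissues and overlapped F112 in both. Against Mbp, a main myelin protein gene, Sox10 in cord was 0.00804 to 0.00880 of the Mbp level in F08, above 0.00687 to 0.00743 in F112 and 0.00675 to 0.00771 in NTg. In cortex that ratio was 0.0143 to 0.0178 in F112, 0.0131 to 0.0178 in F08 and 0.0121 to 0.0159 in NTg, and all genotypes overlapped. Olig1 over Olig2 overlapped between all genotypes in both tissues.

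**Figure D4:**
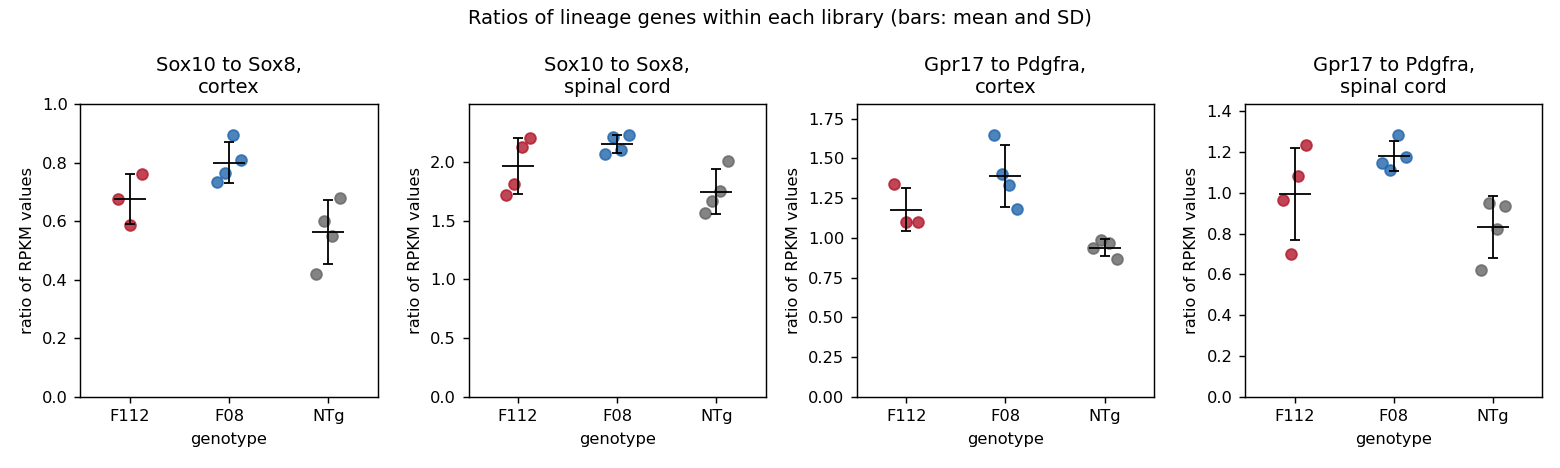
Ratio of RPKM values within each library (vertical axis, from 0, no unit) for Sox10 to Sox8 and Gpr17 to Pdgfra in each tissue; points are libraries of F112, F08 and NTg, and bars give the mean and SD of 3 or 4 libraries. In cortex the 4 NTg libraries lie below all 7 transgenic libraries for Gpr17 to Pdgfra, and the share of all gene pairs that do so was not computed.

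Other genes of the lineage were counted from lists, and none of their genes passed in any of the 6 comparisons within a tissue. In cord F112 against F08, of 31 ligands and receptors acting on precursors 25 lay below 0 (median -0.10, where 58.8% of all genes did) and 12 of these had an unadjusted p under 0.05 (8.01% of all genes). Notch1, a receptor that holds precursors back from maturing, averaged 4.08 ± 0.41 RPKM in F112 and 4.75 ± 0.11 in F08 (SD, n = 4 each), and Fgfr3, a fibroblast growth factor receptor also made by astrocytes, 53.5 ± 2.87 and 58.9 ± 1.55. Pdgfa, the ligand of Pdgfra, averaged 17.0 ± 1.25 RPKM in F112 and 18.7 ± 0.82 in F08, and Erbb3, a neuregulin receptor, 5.66 ± 0.60 and 6.68 ± 0.54.

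Of 32 other transcription and chromatin regulators, 24 lay below 0 in cord F112 against F08 (median -0.05), 8 of them with an unadjusted p under 0.05, against the same 58.8% and 8.01% of all genes. Sox17, which promotes exit of precursors from the cell cycle and which endothelium also expresses, averaged 0.953 ± 0.11 RPKM in F112 and 1.36 ± 0.17 in F08 (SD, n = 4 each), a log2 difference of -0.36 (limma adjusted p = 0.318). Hes5, a Notch target, averaged 1.5 ± 0.23 and 2.08 ± 0.24 (difference -0.37, adjusted p = 0.393). In F112 against NTg cord, Nkx6-2, a homeodomain factor of myelinating cells, averaged 10.2 ± 2.14 RPKM in F112 and 13.5 ± 0.96 in NTg (difference -0.41, adjusted p = 0.50). Of the other precursor genes, 15 of 23 lay below 0 in cord F112 against F08 (median -0.05). For mature myelin genes it was 14 of 23 (median -0.04), and both counts are near the 58.8% of all genes.

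Mature myelin genes of cortex were counted in the same way. In F08 against NTg 23 of 23 lay above 0 with a median of 0.41 (49.5% of all genes did), a pattern that was known when the genes were chosen. In F112 against F08, which reuses those F08 values, 23 of 23 lay below 0 with a median of -0.47 (56.3% of all genes did). In F112 against NTg cortex 9 of 23 lay above 0, with a median of -0.04 (43.6% of all genes did). The cord did not show the F08 pattern: in F08 against NTg 8 of 23 lay above 0, with a median of -0.003 (55.6% of all genes did). Myrf, the factor that switches on myelin genes, averaged 5.09 ± 1.16 RPKM in F112 (n = 3), 7.71 ± 1.61 in the 4 F08 libraries and 5.44 ± 1.20 in the 4 NTg libraries (SD). NTg 6322 was the lowest NTg library for Myrf (3.64 RPKM), Mbp (401) and Mog (10.3), and its part in these list counts was not tested. The other precursor genes had medians of 0.05 in F112 against NTg (17 of 22 above 0, and 43.6% of all genes), 0.08 in F08 against NTg (13 of 22 above 0, and 49.5%) and -0.06 in F112 against F08 (14 of 22 below 0, and 56.3%).

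Likeness to a member was measured by Pearson's r over the libraries of a tissue, among all other genes averaging 5 RPKM or more, as a description. Over 11 cortex libraries and 7586 genes, Sox10 was most like Cldn11 (r = 0.95), a tight junction protein of myelin, Tspan2 (0.94), a tetraspanin of oligodendrocytes, and Sox2ot (0.93). Pdgfra in cortex was most like Blcap (0.96), Cd200 (0.95) and Tro (0.93), and Gpr17 most like Snx30 (0.88), Tulp4 (0.86) and Cep170 (0.85). Over 12 cord libraries and 8581 genes, Sox10 was most like Fam53b, Flcn and Abl1 (0.90 each), Pdgfra most like Myl9 (0.84), Ptgfrn (0.83) and Kank4 (0.83), and Gpr17 most like Vim (0.94), Slc35e1 (0.94) and Zfyve1 (0.92). No gene was among the first 3 for the same member in both tissues, and the points share library depth and tissue makeup. Libraries of all 3 genotypes were pooled, so r in cortex includes the F08 differences that led to the choice of these genes. How high the top r would be among this many unrelated genes was not computed.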

How the data were processed

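RNA was extracted from frozen tissue, per the labels' protocols. The authors deposited 1 table per tissue of RPKM values, with the alignments of each library. Per the submitters' processing notes, the tools were Partek and TopHat2 (2.0.8b) and the builds mm10 and mm9. The sources used here do not say which of these served which table, or how reads were assigned to genes. The values did not reduce to whole reads, so no count model was used.

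Genes averaging 0.5 RPKM or more in a tissue were kept. Log2(RPKM + 0.5) was analysed in R 4.3.3 with limma 3.58.1 (two-sided, empirical Bayes with a trend), 1 fit per tissue over all 3 genotypes. A gene passed at a Benjamini-Hochberg adjusted p under 0.05 over all genes. The procedure was tested on simulated data. Intervals are 95% and cover the spread between these mice only. Positions, GC content and lengths came from GENCODE M21 (GRCm38), and upstream sequences from RefSeq (GRCm38.p6).

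Mouse numbers in the labels pair the tissues. Over 11 pairs the correlation of deviations was 0.03 to 0.23, and 8 of 11 exceeded 0.1. The correlation fitted for the mouse as a replicate block was 0.040. The tissues share mice, so agreement between them is not independent. How much of it comes from the mice was not tested.

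The members and lists were chosen with earlier results of these data known. Named beside the 8 members were landmark genes, up to 2 genes per list with the smallest p in a comparison, and the 3 genes most like Sox10, Pdgfra and Gpr17. Alternatives covered pseudocount, filter, scaling, samples, covariates and the mouse as a block.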

Additional observations from a re-analysis of the deposited data

Results flagged for a closer look

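Each gene was examined in the 40 groups of 4 libraries for a library that stood apart from the other 3, measured as the gap to its nearest neighbour over the range of the group. Chance alone marks about 1 in 20 groups, and 3 of 40 were marked. Sox10 in NTg cortex was lowest in mouse 6322, at 6.40 RPKM (gap over range 0.860), the library that also had the lowest Mbp, 401 RPKM, and a Ttr level of 705 RPKM. Sox8 in F08 cord was lowest in mouse 6321, at 19.3 RPKM (0.891). Sox8 in NTg cord was highest in mouse 6323, at 21.4 RPKM (0.924), where the other 3 NTg libraries were nearly equal.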

How the results depend on the processing

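None of the 8 genes passed in any comparison under any alternative run, leave-outs included. The number of all genes that passed was small and moved. In cortex F08 against NTg it was 1 with median-of-ratios scaling, 1 with the GC correction and 3 without the 3 Ttr-rich libraries. In cord F112 against NTg it was 0 with a pseudocount of 1, with no filter, with a filter at 5 RPKM, with only the 2 groups compared and with alignments as a covariate. In cord F08 against NTg it was 2 with Xist as a covariate, 0 with alignments and 2 with the GC correction. In cord F112 against F08 it was 1 with no filter, 1 with a filter at 5 RPKM, 1 with only the 2 groups and 6 with Xist. Leaving out 1 library at a time gave 1 to 2 genes in cortex F112 against NTg, 0 to 1 in cortex F112 against F08, 0 to 2 in cord F112 against NTg, 1 to 4 in cord F112 against F08, and, for the difference between tissues, 1 to 2 for F112 against NTg and 1 to 3 for F08 against NTg. With the mouse as a replicate block those differences between tissues gave 1, 1 and 0 genes and 0 of the 8, and no call changed.

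Small differences changed sign. In cortex F112 against NTg, without the Ttr-rich libraries, Olig1 stood at -0.052 and Olig2 at -0.073. Pdgfra there stood at 0.0063 with median-of-ratios scaling, 0.012 with quantile normalization, 0.026 with Xist, 0.071 with alignments and 0.0080 with the GC correction. In cord F112 against NTg, Cspg4 stood at 0.0049 with quantile normalization, 0.049 with alignments and 0.047 with the GC correction, and Sox10 at 0.047 with the GC correction. In cord F08 against NTg, Olig2 stood at -0.025 with alignments and -0.00076 with the GC correction. Leave-out ranges that crossed 0 were, in cortex F112 against NTg, -0.040 to 0.17 for Olig2 and -0.22 to 0.094 for Pdgfra, and, in cortex F112 against F08, -0.25 to 0.071 for Cspg4, -0.27 to 0.044 for Gpr17, -0.20 to 0.011 for Olig2 and -0.094 to 0.22 for Pdgfra. In cord they were -0.039 to 0.0094 for Cspg4 and -0.095 to 0.023 for Sox10 in F112 against NTg, and -0.017 to 0.053 for Nkx2-2, -0.048 to 0.014 for Olig1 and -0.016 to 0.083 for Olig2 in F08 against NTg. In cortex F08 against NTg, given as a description, the leave-out range of Nkx2-2 also crossed 0 (-0.061 to 0.16). It stood at -0.088 there without the Ttr-rich libraries. The cause of these changes of sign was not tested. In cord F112 against F08 every tested member lay below 0 under each alternative run. At a filter of 5 RPKM, cortex Nkx2-2 and Cspg4 were not tested. Cortex depth limits Nkx2-2 most.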
